A study of Mus musculus with 5 samples.

Results

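The clathrin coat and its AP-2 adaptor were followed gene by gene through 5 mouse single-cell RNA libraries. The 10 genes are the heavy chain Cltc, the light chains Clta and Cltb, the AP-2 subunits Ap2a1, Ap2a2, Ap2b1, Ap2m1 and Ap2s1, and the clathrin adaptors Picalm and Dab2. They were chosen by name as coat subunits and adaptors, and all 10 are among the 17558 genes that the 3 deposited count tables share. The study concerns epsins of the liver, which are endocytic adaptors themselves. A DKO-labelled liver and a WT-labelled liver, both on an ApoE background, gave 4331 cells each. A further WT-labelled liver with no background named gave 616 cells, and a DKO-labelled and a WT-labelled aorta on the ApoE background gave 2800 cells each. The abbreviation DKO is not written out in the labels, which tie it to the liver of the mice, and the aorta carries it too. Deleted exons, the driver of the deletion, strain, sex and age were not given in the sources used here. Each group is 1 library and the number of animals behind it is not stated, so no difference below has a replicate check and no p-value is given. Bracketed ranges are 95% limits for counting error alone.

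Clathrin triskelia, each built of heavy chains with light chains bound to them, polymerise into the cage that bends the plasma membrane into a pit. AP-2 is made of an alpha, a beta, a mu and a sigma subunit and ties the cage to membrane phosphoinositides and to sorting signals in receptor tails. Ap2a1 and Ap2a2 encode alternative alpha subunits, and Ap2b1, Ap2m1 and Ap2s1 the beta, mu and sigma subunits. PICALM binds phosphoinositides and clathrin and sorts small SNARE proteins, and DAB2 binds sorting signals in the tails of cargo receptors. In the liver this route takes up lipoproteins and glycoproteins in hepatocytes and a wide range of ligands in sinusoidal endothelium.

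The upstream bases of Dab2 and Picalm are shown because the results turn on these adaptors. They are the 250 bases before each RefSeq transcription start (GRCm38.p6), 5′ to 3′ on the gene's strand, with CG dinucleotides in capitals. RefSeq gives Dab2 a pair of starts and Picalm a single one.
Dab2, chr15:6299539-6299788, plus strand: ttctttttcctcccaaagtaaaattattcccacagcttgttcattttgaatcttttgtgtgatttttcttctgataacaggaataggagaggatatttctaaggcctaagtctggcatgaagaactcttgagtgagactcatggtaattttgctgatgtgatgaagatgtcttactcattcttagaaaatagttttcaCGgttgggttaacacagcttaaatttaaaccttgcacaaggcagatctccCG
Dab2, chr15:6386498-6386747, plus strand: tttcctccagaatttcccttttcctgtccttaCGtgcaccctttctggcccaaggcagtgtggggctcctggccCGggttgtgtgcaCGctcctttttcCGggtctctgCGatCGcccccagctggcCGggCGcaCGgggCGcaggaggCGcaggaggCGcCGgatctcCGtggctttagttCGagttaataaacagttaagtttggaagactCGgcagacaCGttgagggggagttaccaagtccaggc
Picalm, chr7:90129963-90130212, plus strand: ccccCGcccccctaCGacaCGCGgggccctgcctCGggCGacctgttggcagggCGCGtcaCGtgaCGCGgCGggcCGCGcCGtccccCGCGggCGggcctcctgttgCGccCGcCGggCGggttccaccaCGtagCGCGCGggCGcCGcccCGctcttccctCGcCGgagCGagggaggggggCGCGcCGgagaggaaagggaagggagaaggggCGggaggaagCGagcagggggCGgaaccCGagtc
The first Dab2 window holds 2 CG and is 36.8% G or C, whereas the second holds 17 CG and is 60% G or C. The Picalm window holds 39 CG, the most of the 12 member windows, and 98.7% of the 32841 windows in the table hold as many or fewer. At most 2 CG are found in 29.0% of all windows. The hexamer GGGCGG, searched on both strands, occurs 6 times in the Picalm window and in neither Dab2 window; 32.7% of all windows hold it. No member window holds TATAAA, which 12.4% of all windows hold. The counted tags lie near the 3′ end of transcripts and do not show which start was used.

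The epsin genes were not lower in the DKO-labelled liver. In hepatocytes Epn1 had 652 UMIs (71.2 CPM, which is UMIs per 1000000 of the group's total) against 515 (58.7 CPM) in the WT-labelled liver, a ratio of 1.21 (1.08 to 1.36). Epn2 had 79 against 67 UMIs, a ratio of 1.13 (0.805 to 1.59). A tag outside a deleted part checks nothing, so libraries are called by their labels throughout, and ratios are DKO-labelled over WT-labelled. The ribosomal-repeat locus Gm42418 took 51771 CPM of the DKO-labelled liver against 23842 CPM of its WT-labelled partner, and 60291 against 29679 CPM in aorta. CPM sums to a fixed total, so such transcripts lower the CPM of all others. Pairs of libraries shared 0 to 7 cell barcodes. Hepatocyte markers were found in each other liver type, at 23592 to 80519.5 CPM summed over 8 genes, so the levels of these types include RNA of hepatocytes.

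Cltc, the heavy chain, was present in every cell type. Levels, shares and orders of types here are over all cells of each of the authors' types, whatever genes lead their clusters. In the DKO-labelled liver it was highest in endothelial cells, at 208 CPM (135 to 307), and the WT-labelled liver had 289 CPM (198 to 408) there. Hepatocytes had 127 and 152 CPM in these livers and 138 CPM without the ApoE background. Of the cells called hepatocytes without that background, 244 lie in a cluster led by Spp1 and Tmsb4x. A further 111 lie in a cluster led by haemoglobin genes. All levels and shares of hepatocytes without the ApoE background include both clusters, which the later ratios between libraries leave out. The endothelial level was set apart from the next type in the WT-labelled liver alone, at 1.91 (1.30 to 2.70) times the hepatocyte level. In the aorta T cells (338 CPM DKO-labelled and 352 CPM WT-labelled) and macrophages (291 and 390.5 CPM) led, and these did not differ from each other beyond counting error in either library. Smooth muscle stood at 237 and 236 CPM. Erythroid cells had 48.3 and 40.0 CPM; in their subtype ET2 haemoglobin and other abundant transcripts took 84.9% and 90.8% of the UMIs, and in ET1 63.4% and 40.4%.

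**Figure D1:**
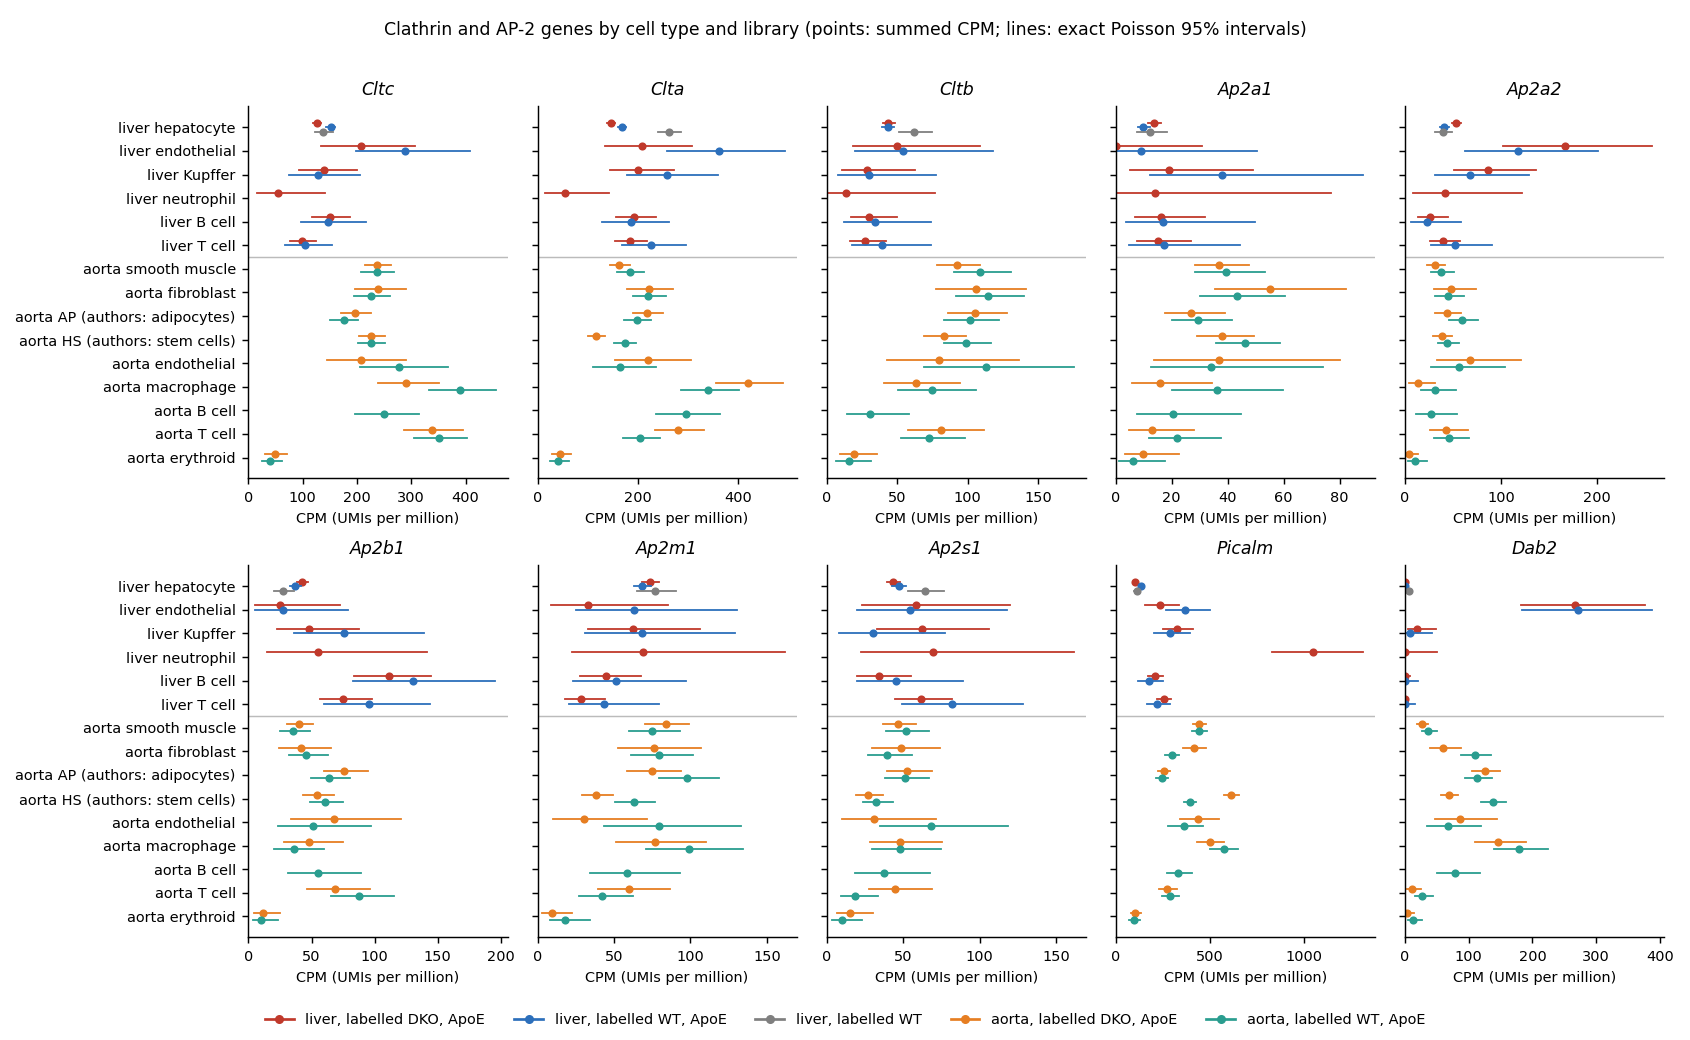
Level of each gene (horizontal axis, CPM, starting at 0) by the authors' cell type (vertical axis, liver above the grey line and aorta below) in each library with at least 50 cells of the type. Points are summed CPM and lines exact Poisson 95% intervals. Dab2 sits near 0 in hepatocytes and at 266 to 271 CPM in liver endothelium, and Picalm reaches 1052 CPM in liver neutrophils.

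The light chains bind the heavy chain and regulate its assembly. Clta was highest among aortic types in macrophages, at 418 CPM (356 to 489) in the DKO-labelled and 339.9 CPM (286 to 401) in the WT-labelled aorta. In the macrophage subtype MP1 it reached 571 and 468 CPM. Hepatocytes had 146 and 168 CPM of Clta on the ApoE background and 262 CPM (239 to 286) without it. The last value includes the Spp1-led and haemoglobin-led clusters, and the later comparison leaves them out. Cltb was lower than Clta in every type of at least 50 cells, and its highest levels were in aortic fibroblasts, at 106 and 114 CPM. Hepatocytes had 43.8, 43.2 and 62.1 CPM of Cltb in the same order of livers. Every aortic type other than erythroid and B cells lay above 60 CPM of Cltb, and every liver type on the ApoE background below it.

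A share within the pair cancels depth and the abundant transcripts. Clta made up 76.9% (74.9 to 78.8) and 79.6% (77.7 to 81.4) of light-chain UMIs in hepatocytes on the ApoE background and 80.8% (77.5 to 83.9) without it. In aortic smooth muscle it made up 63.8% (58.9 to 68.4) and 62.8% (57.2 to 68.2). The intervals of hepatocytes and smooth muscle do not overlap, but these types come from separate tissues, libraries and count tables. Cell type and tissue cannot be told apart in this contrast. Aortic macrophages had 86.8% (81.0 to 91.4) and 82.0% (75.4 to 87.4), and aortic B cells of the WT-labelled library 90.5% (82.8 to 95.6). Smooth muscle, fibroblasts and the clusters that the authors code AP and HS lay between 58.4% and 67.6%, each with an interval below that of macrophages in its library.

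The alpha subunits of AP-2 divided the same cells differently. Ap2a1 made up 20.4% (17.3 to 23.8) and 19.2% (15.7 to 23.2) of alpha-subunit UMIs in hepatocytes on the ApoE background and 23.7% (15.7 to 33.4) without it. In smooth muscle it made up 54.1% (44.3 to 63.6) and 51.2% (39.9 to 62.4), so that both subunits had like counts there. Cell type and tissue cannot be told apart in this contrast either. Liver endothelium had 0 Ap2a1 UMIs of 20 alpha-subunit UMIs in the DKO-labelled liver, a share of up to 16.8%, and 1 beside 13 Ap2a2 UMIs in the WT-labelled liver. Ap2a2 stood in these cells at 166 CPM (102 to 257) and 117 CPM (62.6 to 201), which was 3.22 (1.95 to 5.02) and 2.86 (1.51 to 4.94) times its level in all other liver cells.

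**Figure D2:**
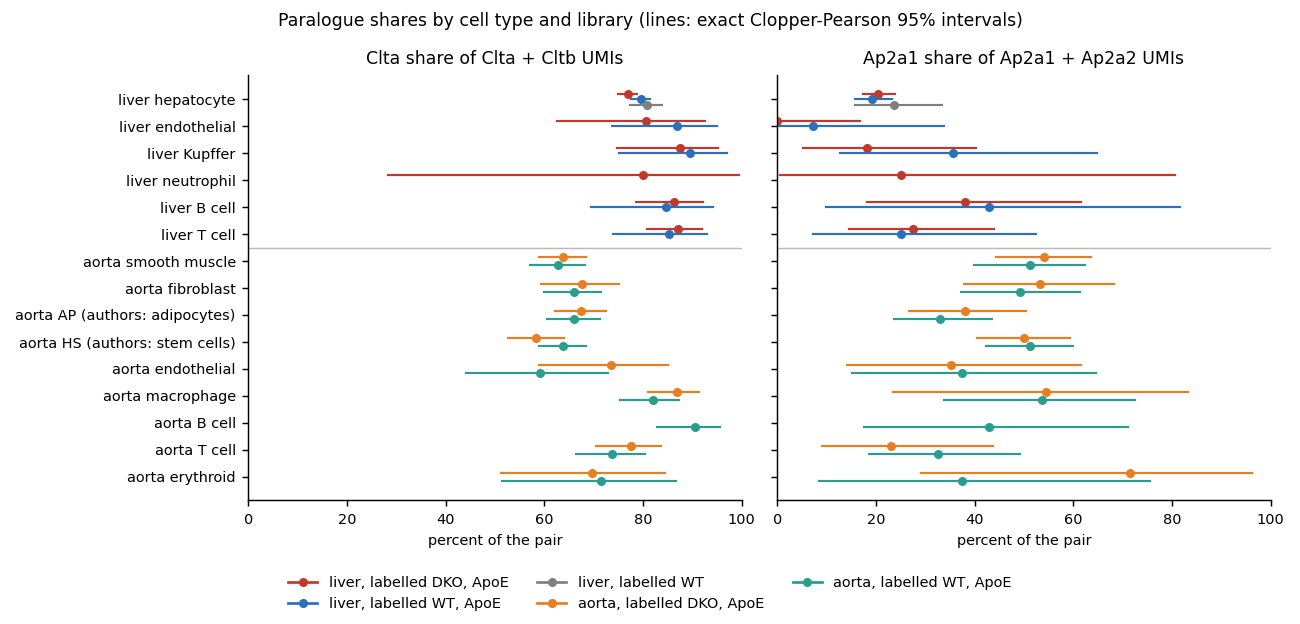
Share of the first gene of each paralogue pair (horizontal axis, percent of the pair's UMIs, 0 to 100) by cell type and library; lines are exact Clopper-Pearson 95% intervals. Clta is 76.9% to 80.8% of its pair in hepatocytes and 62.8% to 63.8% in smooth muscle. Ap2a1 is 19.2% to 23.7% in hepatocytes and 51.2% to 54.1% in smooth muscle. Liver and aorta are separate libraries and count tables.

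Of the remaining AP-2 subunits, Ap2b1 was highest in liver B cells, at 111 CPM (83.8 to 145) and 130.4 CPM (82.7 to 196). That was 2.48 (1.84 to 3.29) and 3.33 (2.08 to 5.08) times the level of all other liver cells, although T cells came next and in the WT-labelled liver did not differ from B cells beyond counting error. That type includes cluster 17, led by the plasma cell genes Igkc, Igha, Jchain and Mzb1, and the plasma cell list stood at 21719 and 142826 CPM in it, against 3629 and 1644 CPM of the B cell list. In cluster 11, the other cluster of the type, Ap2b1 had 108 CPM (79.7 to 143) in 271 cells of the DKO-labelled liver; the WT-labelled liver had 31 such cells and 7 UMIs. Hepatocytes had 42.6, 37.2 and 27.6 CPM of Ap2b1. Ap2m1, whose product reads tyrosine-based sorting signals, stood at 73.4, 68.4 and 77.0 CPM in hepatocytes and at 83.9 and 75.1 CPM in smooth muscle. In T cells of the DKO-labelled liver Ap2m1 was 28.7 CPM, 0.402 (0.247 to 0.619) times the level of all other liver cells; in the WT-labelled liver it was 43.3 CPM, 0.639 (0.305 to 1.18) times, an interval that holds 1. Ap2s1, the small sigma subunit, had 43.6, 47.2 and 64.2 CPM in hepatocytes and 46.9 and 51.6 CPM in smooth muscle. No type's lead in it over the next type was larger than counting error. Against all other cells of the library, liver T cells were at 1.40 (1.01 to 1.90) and 1.75 (1.04 to 2.77) times. Aortic AP was at 1.43 (1.03 to 1.94) and 1.41 (1.02 to 1.91) times. Aortic erythroid cells were lower, at 0.371 (0.158 to 0.743) and 0.242 (0.078 to 0.573) times. In the WT-labelled aorta alone smooth muscle lay above 1 and T cells below, and in the DKO-labelled one alone HS below.

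Picalm was lowest in hepatocytes among the liver types. They had 102 CPM (95.4 to 108) in the DKO-labelled liver, 136 CPM (128 to 143) in the WT-labelled one and 114 CPM (99.4 to 130.4) without the ApoE background. The 51 neutrophils of the DKO-labelled liver had 1052 CPM (829 to 1317) from 76 UMIs, 3.24 (2.30 to 4.56) times the level of Kupffer cells, the next type. The WT-labelled liver had 17 neutrophils, under the 50 asked of a type. After each cell was thinned to 500 UMIs, 37.3% (24.1 to 51.9) of those neutrophils and 5.32% (4.59 to 6.13) of hepatocytes in the DKO-labelled liver held a Picalm UMI, against 66.7% and 21.2% before thinning. In the aorta the clusters coded HS led in the DKO-labelled library with 614 CPM (575 to 655), and macrophages in the WT-labelled one with 574 CPM (503 to 651). Among macrophages the subtype MP2 had 629 and 838 CPM and MP1 360.4 and 355 CPM. The type also includes MP4, which is led by the neutrophil genes S100a9, S100a8 and Retnlg and had 463 and 457 CPM of Picalm in 20 cells of each aorta. Over the whole type the neutrophil list stood at 5653 and 6691 CPM and the macrophage list at 6416 and 5922 CPM; the part of MP4 in the levels of the type was not tested. Smooth muscle stood at 445 and 444 CPM.

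Dab2 was far higher in endothelium than in every other liver type measured. Liver endothelial cells had 266 CPM (182 to 376) from 32 UMIs in 65 cells of the DKO-labelled liver and 271 CPM (183 to 387) from 30 UMIs in 57 cells of the WT-labelled one. Hepatocytes had 1 UMI in 3382 cells and 6 UMIs in 4040 cells, or 0.107 and 0.681 CPM. B and T cells had none in either liver, and Kupffer cells had 4 UMIs and 1 UMI. After thinning to 500 UMIs, 9.23% (3.46 to 19.0) and 12.3% (5.08 to 23.7) of endothelial cells held a Dab2 UMI, against 0.0296% and 0.0743% of hepatocytes. Before thinning the shares were 29.2% and 26.3% of endothelial cells at median depths of 1148 and 1609 UMIs, and hepatocyte depths were 1652 and 1535 UMIs. The 616 cells called hepatocytes without the ApoE background held 13 Dab2 UMIs, or 6.90 CPM. In the cells of that library used below as hepatocytes, the macrophage marker list stood at 225 CPM and the endothelial list at 43.3 CPM, against 7.87 and 6.39 CPM in the WT-labelled liver on ApoE; their part in the Dab2 level was not tested.

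Aortic Dab2 was spread more widely. Macrophages had the highest level, at 146 CPM (109.7 to 189) and 178 CPM (140.1 to 224), and MP4 held no Dab2 UMI. The clusters coded AP had 125 and 114 CPM, those coded HS 69.0 and 138 CPM, endothelial cells 85.8 and 68.0 CPM, and fibroblasts 59.9 and 109 CPM. By level alone, AP, endothelium, HS and fibroblasts came after macrophages in that order in the DKO-labelled aorta. In the WT-labelled aorta HS, AP, fibroblasts, B cells (78.9 CPM) and endothelium followed. Counting error did not set all neighbours apart. Against all other cells of the DKO-labelled aorta, macrophages were at 2.65 (1.96 to 3.54) and AP at 2.62 (2.10 to 3.26) times. Endothelium was at 1.44 (0.778 to 2.44) times there and 0.746 (0.383 to 1.31) times in the WT-labelled aorta. T cells had 10.7 and 27.1 CPM. Smooth muscle had 26.5 and 36.6 CPM and erythroid cells 3.87 and 12.0 CPM. The macrophage subtype MP2 reached 283 and 318 CPM. The authors call AP adipocytes and HS hematopoietic stem cells, but AP1 and AP2 are led by Serpinf1 and Pi16, HS1 by Taco1, Fancc and Unc5c, HS2 by Mmp13, Hp and Lcn2, and HS3 by the cartilage genes Col2a1, Chad, Comp and Acan. The data go against those names, so only the codes are used here. The smooth muscle subtype VS3 had no smooth muscle marker among its leading genes.

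Across the 52 profiles of library and subtype with at least 50 cells, the genes most like each member were found by Pearson correlation of log2(CPM + 10) among 9032 genes. The profiles of a library share its dissociation and depth, so these values are descriptions. Picalm was most like Dleu2 (0.91), Asxl1 (0.90) and Mbnl2 (0.89). Dab2 was most like Nav1 (0.88), Zbtb46 (0.88) and Apbb2 (0.86). The heavy chain Cltc was most like Hspa8 (0.88), which encodes the chaperone that strips the coat, Vapa (0.88) and Ncl (0.88). Clta was most like the ribosomal protein genes Rpl15 (0.88) and Rpl6 (0.87), and Ap2a1 like Grk5 (0.83) and Phf10 (0.83). Among the members, Clta and Cltc had a correlation of 0.75 and Cltb and Cltc of 0.74, while the alpha subunits had 0.16 with each other.

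Between the DKO-labelled and WT-labelled livers, hepatocytes were compared over 3213 and 4015 cells of the clusters numbered 0 to 8 and 13. Picalm was lower, and both alpha subunits of AP-2 were higher, in the DKO-labelled liver. Picalm had 103 against 135 CPM, from 944 and 1187 UMIs (0.761, 0.698 to 0.830). Ap2a2 had 53.8 against 40.8 CPM and a ratio of 1.32 (1.15 to 1.51), and Ap2a1 13.9 against 9.81 CPM and a ratio of 1.41 (1.07 to 1.88). A gene is called here where its ratio is at least 1.2-fold either way with the interval clear of 1, among genes with at least 100 UMIs over both libraries. Of the 10 members 9 passed that filter and 3 were called, while 22.0% of the 8282 genes that passed were called, a count of members near the background share. The heavy chain Cltc, at 128 against 152 CPM (0.844, 0.780 to 0.914), and Clta, at 146 against 169 CPM (0.869, 0.806 to 0.936), had intervals clear of 1 without reaching the fold. Cltb (1.03), Ap2b1 (1.15), Ap2m1 (1.08) and Ap2s1 (0.929) had intervals that hold 1, and Dab2 had 1 against 6 UMIs. The median log2 ratio was 0.04 over the members and 0.00 over all genes that passed.

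**Figure D3:**
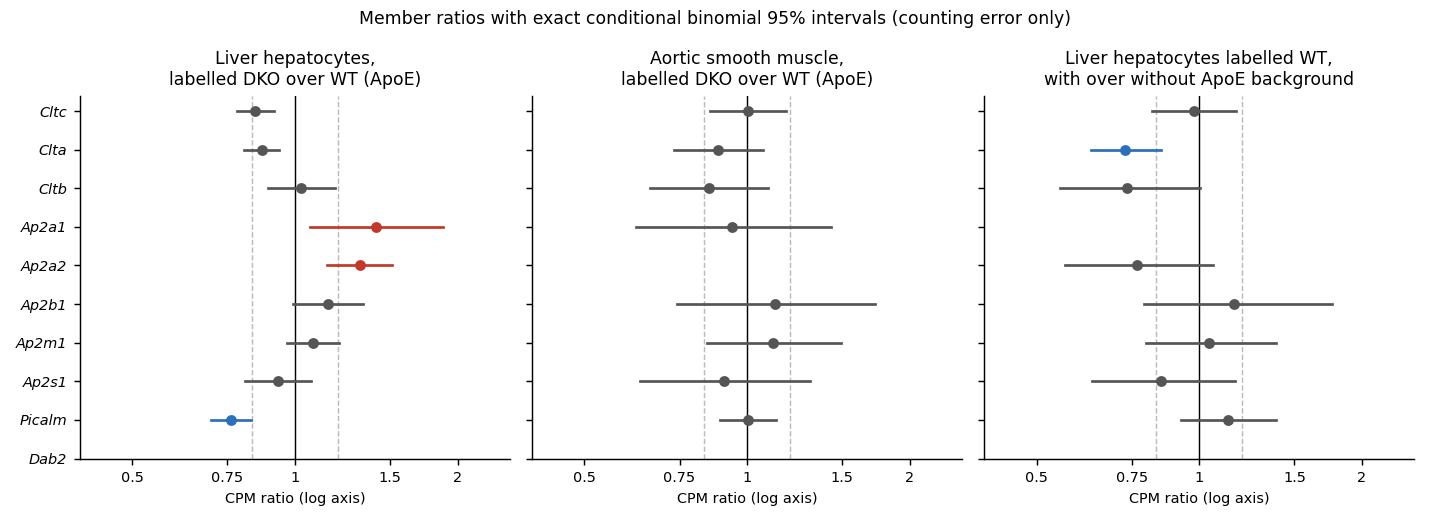
CPM ratio of each member in 3 comparisons (horizontal log axis; lines are exact conditional binomial 95% intervals; dashed lines mark 1.2-fold; red and blue are called higher and lower, grey not called). Members under 100 UMIs over both libraries, Dab2 among them, are left blank. Picalm lies at 0.761 in hepatocytes and at 1.003 in smooth muscle.

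Within single hepatocyte clusters Picalm was below 1 in all 9 that had at least 50 cells in both livers. Its ratio ran from 0.501 in cluster 4 (95.3 against 190.2 CPM) to 0.923 in cluster 2. It passed the filter in 8 clusters and was called lower in 4, numbers 1, 3, 4 and 5. The share of genes called lower was, for clusters 0 to 8 in turn, 15.8%, 16.9%, 27.7%, 18.5%, 23.3%, 10.9%, 21.6%, 10.6% and 11.6%. In the same order, the median log2 ratio over all genes that passed was -0.0002, 0.006, -0.119, -0.138, -0.113, 0.007, -0.224, -0.022 and -0.053. The clusters come from the same pair of libraries and are not replicates. How many genes lie below 1 in all of them was not counted. Cltc was below 1 in 8 of 9 clusters, with cluster 2 the exception at 1.13, and Clta in 6 of 9. Cltc was called lower in clusters 4, 7 and 8 (0.736, 0.817 and 0.808), Clta in 1, 3 and 4 (0.710, 0.575 and 0.703) and Ap2s1 in 2 and 8 (0.487 and 0.658). Ap2a2 was above 1 in 7 of 9, up to 2.10 in cluster 1, and was called in none of the 3 where it passed the filter. Clusters 5, 7 and 8 have the highest median depths of the hepatocyte clusters. Over these alone the ratio of Ap2a1 was 0.956 (0.653 to 1.41), that of Ap2a2 was 1.18 (0.983 to 1.42), and neither was called. By the authors' subtypes, the members called, of those that passed the filter, were 1 of 8 in HC Hnf4a hi (18.3% of genes), 1 of 6 in HC1 Alb hi (36.2% of genes), 4 of 7 in HC2 Alb hi (31.7% of genes) and 5 of 8 in HC3 Alb hi (25.2% of genes). Picalm was called lower in 3 of the 4, at 0.797 (0.696 to 0.912) in HC Hnf4a hi, 0.615 (0.467 to 0.801) in HC2 Alb hi and 0.680 (0.589 to 0.784) in HC3 Alb hi, and not in HC1 Alb hi, at 0.757 (0.558 to 1.02). Ap2a2 was called higher in 2, at 1.68 (1.16 to 2.43) in HC2 Alb hi and at 1.41 (1.12 to 1.77) in HC3 Alb hi. HC1 Alb hi includes the acinar-led cluster 16. The other calls were Ap2s1 in HC1 Alb hi (0.686), Clta (0.794) and Ap2m1 (1.49) in HC2 Alb hi, and Cltc (0.780), Clta (0.817) and Cltb (1.34) in HC3 Alb hi.

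**Figure D4:**
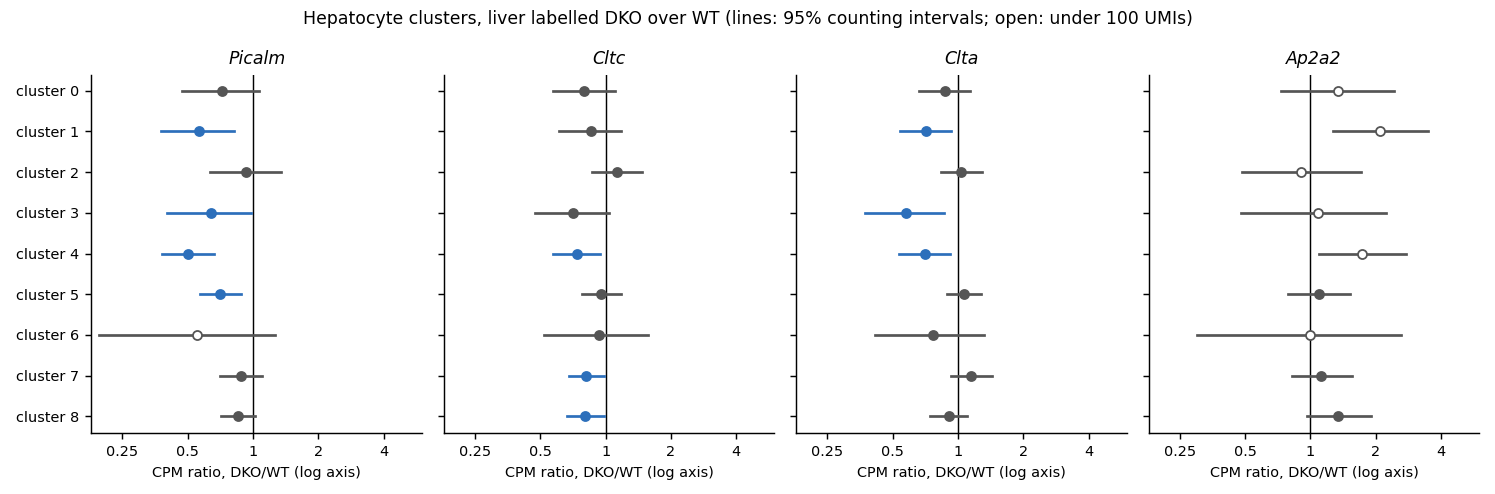
CPM ratio of the DKO-labelled over the WT-labelled liver (horizontal log axis) for 4 members in 9 hepatocyte clusters; lines are 95% counting intervals, blue is called lower, grey is not called, and open points hold under 100 UMIs. Picalm lies below 1 in all 9 clusters, from 0.501 to 0.923.

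Depth and RNA composition moved with these livers. The DKO-labelled hepatocytes held a median of 1753 UMIs and 7.09% mitochondrial UMIs per cell, against 1536 UMIs and 3.01%. Abundant transcripts (mitochondrial, haemoglobin and immunoglobulin genes, Gm42418, AY036118 and Malat1) took 16.0% against 11.2% of their UMIs. The 8 hepatocyte markers, all detected in both, summed to 77959 against 96557 CPM. With those abundant transcripts left out of the total, Picalm was again called lower and Ap2a1 and Ap2a2 higher, and Ap2b1 was called higher at 1.22 (1.05 to 1.41). The makeup of the hepatocytes by subtype differed too, with 777 against 1290 cells of HC2 Alb hi and 823 against 1260 of HC3 Alb hi, whose median depths were 4273 against 1824 UMIs. The part of depth, composition and makeup in the member ratios was not tested, and fewer cells of a kind and less RNA per cell cannot be told apart in such sums.

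The receptors that the coat carries were called in both directions in the same hepatocytes, in which 10.4% of all genes that passed were called higher and 11.6% lower. Of 10 cargo receptors that passed the filter, of 14 listed, 4 were higher and 2 lower, with a median log2 ratio of 0.28. Egfr, the epidermal growth factor receptor, was at 0.825 (0.794 to 0.856), the endocytic receptor Lrp1 at 1.30 (1.22 to 1.39), and Asgr2, a chain of the asialoglycoprotein receptor, at 1.41 (1.29 to 1.54). Of 18 other adaptors and accessory proteins 2 were higher, Epn1 and Hip1r (1.40, 1.12 to 1.75), and 1 lower, Ston2 (0.756, 0.571 to 0.999), with a median of 0.12. Of 12 scission and uncoating genes 3 were higher, Snx9 (1.29, 1.11 to 1.52), Pacsin3 (1.29, 1.001 to 1.67) and Bin1 (1.60, 1.07 to 2.43), with a median of 0.20. None of 6 genes of AP-1 and the GGA proteins and none of 11 of AP-3, AP-4 and AP-5, which serve other compartments, was called.

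In aortic smooth muscle (1034 DKO-labelled and 636 WT-labelled cells) 0 of the 8 members that passed were called, where 23.3% of 4331 genes were. Picalm stood at 445 against 444 CPM (1.003, 0.892 to 1.13) and Cltc at 237 against 236 CPM (1.004, 0.854 to 1.18). Clta was at 0.885 (0.733 to 1.07), Cltb at 0.850 (0.662 to 1.09) and Ap2m1 at 1.12 (0.841 to 1.49). For these 3 the intervals hold both 1 and differences past 1.2-fold. Dab2 had 43 against 39 UMIs and Ap2a2 51 against 40 UMIs, under the filter. The median log2 ratio was -0.04 over the members that passed and -0.08 over all genes. VS3, the shallowest of the 3 smooth muscle subtypes, gave 351 DKO-labelled and 72 WT-labelled cells. When each cell was weighted alike, the ratio of Cltb was 0.652 and was called lower. Its range, 0.508 to 0.838, is the interval of the summed counts scaled to that ratio. It does not cover the error of the weighted value. Of all genes that passed, 7.16% were called higher and 16.2% lower. Of 11 other adaptors and accessory proteins 3 were higher, Hip1 (1.37, 1.16 to 1.63), Epn2 (1.31, 1.05 to 1.64) and the kinase Aak1 (1.64, 1.16 to 2.35), and 1 lower, Fcho2 (0.791, 0.639 to 0.980). Of 7 cargo receptors 3 were higher, the insulin receptor Insr (2.01, 1.47 to 2.78), the transferrin receptor Tfrc (1.63, 1.09 to 2.49) and Igf2r (1.33, 1.002 to 1.78). Of 4 caveolar genes 1 was lower, Cav1 (0.804, 0.678 to 0.953). None of 7 scission and uncoating genes was called. None of 2 genes of AP-1 and the GGA proteins and none of 4 of AP-3, AP-4 and AP-5 was called either. In the same cells the cartilage list, with all genes detected, stood at 149 against 604 CPM, the cholangiocyte list at 838 against 1546 CPM and the smooth muscle list at 31293 against 30650 CPM. The cholangiocyte list holds Spp1, which is also a leading gene of the aortic fibroblast cluster FB1. Abundant transcripts took 15.2% against 10.4% of the UMIs, and the part of these values in the ratios was not tested.

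In other aortic clusters Picalm was called higher and Dab2 in both directions. Of the 15 aortic subtypes with at least 50 cells in both libraries, Picalm passed the filter in 12 and was called higher in 4. In those where it passed, 23.6% (VS1) to 48.8% (MP2) of all genes were called. Dab2 passed in 3 and was called higher in 1 and lower in 1. In FB1, the fibroblast cluster, where 33.0% of genes were called, Picalm was at 417 against 298 CPM (1.40, 1.15 to 1.71) and Dab2 at 59.9 against 109 CPM (0.549, 0.340 to 0.858). In HS1 (37.0% called) Picalm was at 781 against 526 CPM (1.49, 1.199 to 1.86), and Dab2 was at 60.8 against 186 CPM from 47 against 35 UMIs, under the filter. In HS3 (32.6% called) Picalm was at 586 against 379 CPM (1.55, 1.25 to 1.90). These are the clusters in which the adaptor PICALM's gene differed most among those called. In AP2 (25.9% called) Picalm was at 399 against 305 CPM (1.31, 1.02 to 1.69). In AP1 (26.6% called) Dab2 was higher, at 169 against 124 CPM (1.37, 1.02 to 1.85), Cltc was higher, at 202 against 152 CPM (1.33, 1.02 to 1.74), and Picalm, at 174 against 209 CPM, was not called.

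**Figure D5:**
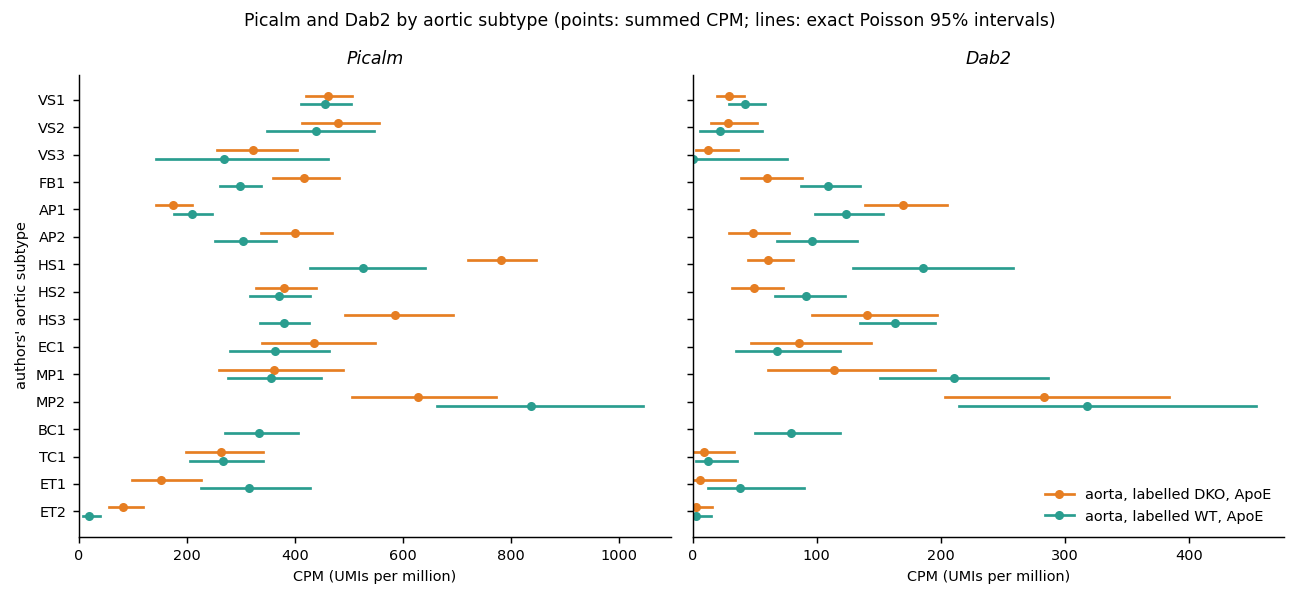
Picalm (left) and Dab2 (right) in CPM (horizontal axes, starting at 0) by the authors' aortic subtype in the DKO-labelled and WT-labelled aorta; lines are exact Poisson 95% intervals. In HS1 Picalm stands at 781 against 526 CPM and Dab2 at 60.8 against 186 CPM.

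Other markers moved with these clusters. In FB1 the smooth muscle list, with 6 of 6 genes detected, stood at 15039.7 against 6752 CPM, and the cartilage list at 742 against 3445 CPM. In HS3 they stood at 16676 against 8280.1 CPM and 3563 against 15535 CPM. Smooth muscle cells held more Picalm and less Dab2 than FB1 and HS3 of the WT-labelled aorta. They held less Picalm than HS3 of the DKO-labelled aorta. In HS1 the erythroid list stood at 4194 against 196 CPM, with 254 DKO-labelled against 75 WT-labelled cells. The part of these markers in the differences was not tested. Over all aortic cells, where 29.9% of genes were called, Picalm was at 1.21 (1.15 to 1.29) and Dab2 at 0.667 (0.584 to 0.760). Weighting the clusters of the DKO-labelled aorta by their UMIs in the WT-labelled one, an alternative added after seeing the data, gave 1.12 and 0.793.

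Between the WT-labelled livers, 4015 hepatocytes on the ApoE background were set beside 261 without it, and ratios are with over without. Clta was lower on the ApoE background, at 169 against 231 CPM (0.730, 0.631 to 0.848). Of 8 members that passed it was the 1 called, where 37.2% of 6875 genes were. Cltc was at 0.976 (0.819 to 1.17), Picalm at 1.13 (0.926 to 1.39) and Cltb at 0.736 (0.551 to 1.001). The tables were counted separately. The hepatocytes on the ApoE background held a median of 1536 UMIs and 3.01% mitochondrial UMIs per cell, against 3018 UMIs and 1.53% without it. Gm42418 stood at 23346 against 10888 CPM in them. The part of these values in the ratios was not tested. Over all cells the authors call hepatocytes, which without the ApoE background include clusters led by Spp1 and by haemoglobin genes, 4 of 9 members were called, where 51.8% of 7158 genes were. Clta (0.643), Cltb (0.696) and Ap2s1 (0.735) were lower there and Ap2b1 (1.35) higher. In the hepatocytes compared, 16.8% of all genes that passed were called higher on the ApoE background and 20.3% lower. Among the 10 cargo receptors that passed there, 3 were higher, among them Egfr (3.55, 3.05 to 4.16) and Lrp1 (1.61, 1.31 to 1.998). Another 3 were lower, among them Asgr1 (0.767, 0.701 to 0.840), the other chain of the asialoglycoprotein receptor.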

How the data were processed

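UMIs (molecule tags near the 3′ end of transcripts) were counted in 3 mouse liver and 2 mouse aorta libraries made with a 10x Genomics droplet kit, per the labels. Reads were processed with Cell Ranger 7.1.0 and the mm10 build, per the submitters' processing notes; the filtering of cells and the naming of types were not described in the sources used here. The authors deposited raw counts per gene and cell in 3 tables, used as they stand, with 1883798 to 10999072 UMIs per library and median depths of 1552 to 2771.5 UMIs per cell. Their cell types, subtypes and clusters were taken from the deposited metadata, of which 27 other columns per table were not used.

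UMIs were summed per type, subtype or cluster of at least 50 cells and given as CPM with exact Poisson intervals. Ratios have exact conditional binomial and shares exact Clopper-Pearson intervals, all at 95%, and cover counting error only. For cells or clusters weighted alike, the interval of the summed counts was scaled to the weighted ratio. Levels, shares and orders are over the authors' whole types, which include the plasma-led cluster 17 among liver B cells, the neutrophil-led MP4 among aortic macrophages and TC4, led by Upk3b, among aortic T cells. Ratios between libraries in hepatocytes and smooth muscle, unless given by type or subtype, are over clusters with no more leading markers of another type than of their own. That left the erythroid-led cluster 14, the acinar-led cluster 16 and the cholangiocyte-led cluster 18 out of hepatocytes on the ApoE background, and clusters 0 and 2 out of those without it. No hepatocyte cluster had a gene of the hepatocyte list among its leading genes, so the rule does not check hepatocyte identity. Doublets were not called. Other genes overlap Ap2a1, Ap2a2, Ap2b1, Picalm and Dab2, so reads there may be shared. All 10 members were named, with up to 4 called genes of most UMIs per gene list and the 3 genes of highest correlation as candidates for likeness; 1 called gene of the cargo list is not reported here. The members, gene lists and comparisons were chosen with earlier results of these data known. The ratio intervals were checked on simulated data. Alternatives were a 1.5-fold limit, no filter on UMIs, totals without the abundant transcripts, ratios divided by their median, cells or clusters weighted alike, cells of 500 or more genes with a mitochondrial share below 10%, all cells of the authors' type, and clusters 5, 7 and 8. Python 3.11.15, NumPy 2.4.6, pandas 2.3.3, SciPy 1.17.1 and Matplotlib 3.10.9 were used.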

Additional observations from a re-analysis of the deposited data

Results flagged for a closer look

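Picalm was called in opposite directions under the same labels, DKO over WT. Its CPM ratio was 0.761 in the hepatocyte class of liver and 1.40 in FB1, 1.31 in AP2, 1.49 in HS1 and 1.55 in HS3 of the aorta. It was called in those 4 of the 12 aortic subtypes in which it passed the filter. Liver and aorta were counted in separate tables, each library is the sole library of its group, and the difference between the ratios was not tested.

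Dab2 was called lower in FB1 (0.549) and higher in AP1 (1.37) of the same pair of aortic libraries. That difference was not tested either.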

How the results depend on the processing

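No paired analysis was possible because each group is 1 library. Alternative values of the member ratios were taken for every member but Dab2, which is still in the counts of members called. Of these 216 values 192 stayed on the same side of the call and within the interval. Those 192 hold 23 from the 1.5-fold limit and 27 from no filter, which can change a call but not a ratio. In smooth muscle the authors' whole type is the class compared, so that alternative repeats the main value. Where cells or clusters were weighted alike, calls used the scaled interval of the summed counts, which does not cover error of the weighted ratio. Of the 216 values 6 moved out of the interval, 6 lost a call and 11 gained one. The 1 that reversed was Ap2a1 in hepatocytes of liver labelled DKO against WT, at 0.956 in clusters 5, 7 and 8. The count of members called there was 3, and became 0 at 1.5-fold and 1 in clusters 5, 7 and 8. The count in smooth muscle was 0, and became 1 with each cell weighted alike and 2 with clusters weighted alike, where Cltb was lower and Ap2m1 higher. For livers labelled WT with against without the ApoE background it was 1, and became 0 at 1.5-fold, 2 with no filter, 2 in cells of at least 500 genes, and 4 over the authors' type; clusters could not be weighted alike, since the tables share none. Of 42 member ratios that passed the filter in subtypes other than hepatocytes 7 were called, where 23.6% (VS1) to 64.8% (Kupffer cells) of all genes were called in these subtypes, and 2 were called at 1.5-fold, an alternative added after seeing the data. The highest cell type of a member in a library was the same in 30 of 40 with cells weighted alike and in 20 of 40 by share of cells after thinning to 500 UMIs. Of 580 alternative levels 59 moved out of the interval, and of 116 paralogue shares 2. The cause of these changes was not tested. Types with few UMIs, such as liver endothelium and neutrophils, limit what their levels show.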
